A study of Mus musculus with 6 samples.

Results

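The genes described here are the mouse genes whose symbol is Zfp (zinc finger protein) followed by a number. On the array, 232 probe sets named 157 such genes, and 65 of them had a mean signal of 20 intensity units or more over the 6 arrays at their brightest probe set. These 65 members are set beside the 6681 genes of any name that met the same minimum. The other 92 Zfp genes were dimmer on average, although 20 of them reached 20 units on at least 1 array. Just inside the minimum were Zfp771 (20.1 units) and Zfp707 (20.3), and just outside it Zfp768 (19.8) and Zfp445 (19.6). The minimum was not met on every array by every member, as 18 of the 65 were under 20 units on at least 1.

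The series used B16, a mouse melanoma cell line, grown in alpha MEM with 10% fetal calf serum and moved to serum-free medium 2 h before the exposure. Normoxia cells were kept for 3 h, chronic hypoxia cells had 3 h of oxygen below 1%, and cyclic hypoxia cells had 3 periods of 1 h of hypoxia separated by 30 min of reoxygenation. Every regime had one collection when the exposure stopped and another 1 h later, which for both hypoxia regimes meant 1 h of reoxygenation. These 6 groups had 1 array each, made from 5 µg of total RNA, so a difference between any 2 arrays has no error and no replicate check. The groups share the serum withdrawal, and the labels do not say that a normoxia control was kept for as long as the interrupted cyclic exposure took in total.

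Most Zfp genes encode nuclear proteins built from repeated C2H2 fingers, small loops that hold a zinc ion and read DNA. Many carry a KRAB domain, which brings the corepressor KAP1 (Trim28) to silence transposons and other loci. Others bind RNA or ubiquitin pathway partners, and Zfp36 (tristetraprolin) has CCCH fingers and speeds the decay of AU-rich mRNAs. Transcripts of C2H2 factors are known as a mostly short-lived class of mRNA.

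The members were dim. Their median signal lay between 38.1 units (cyclic hypoxia with reoxygenation) and 57.0 units (chronic hypoxia with reoxygenation), against 102 and 112 units for all 6681 genes on the same arrays. Only 12 members had a mean signal of 100 or more, and 34 were under 50. None was under the floor of 2.10 units, to which lower values were set, on any array. The reoxygenated cyclic array stood apart from the rest, with a mean correlation across probe sets of 0.940 against 0.962 to 0.966 for the other arrays, and it had the lowest median signal of all probe sets, 15.9 units against 17.4 to 19.3. The 7 melanocyte and melanoma markers named on the array (Tyr, Tyrp1, Dct, Pmel, Mitf, Sox10 and Gpnmb) had mean signals of 1126 units or more. Mitf, the master regulator of melanocytes, had 2568 units in normoxia +1 h and 635 on the reoxygenated cyclic array. Its log2 difference there was -2.02, unlike the other markers. Sox10 had -0.25, and Tyr, Tyrp1, Dct, Pmel and Gpnmb had 0.06 to 0.29. The summed signals of the other cell type markers stayed low on every array, at 16.4 to 32.3 units for 6 fibroblast genes, 56.4 to 77.0 for 5 immune genes, 2.64 to 16.05 for 4 endothelial genes and 16.9 to 24.98 for 4 keratinocyte genes.

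After cyclic hypoxia and 1 h of reoxygenation, 15 of the 65 Zfp genes were 2-fold or more lower than in normoxia +1 h, that is, at a log2 difference of -1 or below, and 1 was 2-fold or more higher. The background of that contrast was 9.97% of all 6681 genes lower and 1.8% higher, beside 23.1% of the members lower. The lower members included the GC-box binding factors Zfp148 and Zfp281, the BTB factor Zfp131, the nuclear RNA- and DNA-binding protein Zfp638 and the SUMO ligase Zfp451. Of the 12 members with a mean signal of 100 or more 0 were 2-fold lower at their brightest probe set, where 7.61% of all genes in that range were, a share too small to set 12 genes apart. In chronic hypoxia with reoxygenation 0 members were 2-fold lower (background 0.344%), and 2 were higher (1.65%).

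Promoters of 5 of these lower members, and of the brightest member Zfp622 for contrast, are shown because the results turn on these genes. Each is the 250 bases upstream of the most upstream start in RefSeq (build GRCm38.p6), 5′ to 3′ on the gene's strand, and 52 of the 65 members matched that table. Capitals mark ACGTG, the core of the site bound by HIF, the hypoxia-inducible transcription factor, and GGGCGG, a GC box bound by SP factors, each searched on both strands, where matches on opposite strands may overlap, as in CACGTG. The intervals are chr16:33380525-33380774 (plus strand), chr1:136624651-136624900 (plus strand), chr13:119790733-119790982 (minus strand), chr17:32788288-32788537 (minus strand), chr6:83914103-83914352 (plus strand) and chr15:25984116-25984365 (plus strand).
Zfp148: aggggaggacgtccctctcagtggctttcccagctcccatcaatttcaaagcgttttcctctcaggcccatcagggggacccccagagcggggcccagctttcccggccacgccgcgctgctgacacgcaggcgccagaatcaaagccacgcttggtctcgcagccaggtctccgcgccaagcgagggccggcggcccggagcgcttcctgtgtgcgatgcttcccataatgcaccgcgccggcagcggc
Zfp281: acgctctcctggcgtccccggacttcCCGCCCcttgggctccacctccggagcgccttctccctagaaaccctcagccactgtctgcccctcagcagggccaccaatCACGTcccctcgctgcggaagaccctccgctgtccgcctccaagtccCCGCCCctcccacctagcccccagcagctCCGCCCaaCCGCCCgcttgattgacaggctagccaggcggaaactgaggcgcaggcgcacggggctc
Zfp131: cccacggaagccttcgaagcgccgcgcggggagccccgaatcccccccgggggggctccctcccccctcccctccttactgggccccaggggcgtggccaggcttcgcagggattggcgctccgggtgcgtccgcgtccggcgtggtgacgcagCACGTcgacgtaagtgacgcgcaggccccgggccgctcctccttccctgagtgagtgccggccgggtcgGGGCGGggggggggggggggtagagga
Zfp871: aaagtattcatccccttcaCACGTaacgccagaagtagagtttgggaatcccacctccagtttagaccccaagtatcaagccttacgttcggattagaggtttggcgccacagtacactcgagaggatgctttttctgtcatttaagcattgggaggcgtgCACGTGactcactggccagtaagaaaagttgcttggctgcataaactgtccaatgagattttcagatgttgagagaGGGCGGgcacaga
Zfp638: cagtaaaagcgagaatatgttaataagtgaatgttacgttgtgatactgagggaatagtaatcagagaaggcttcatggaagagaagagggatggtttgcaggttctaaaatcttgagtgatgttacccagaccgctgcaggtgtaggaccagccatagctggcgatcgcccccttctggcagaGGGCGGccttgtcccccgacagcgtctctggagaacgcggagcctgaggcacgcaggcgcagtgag
Zfp622: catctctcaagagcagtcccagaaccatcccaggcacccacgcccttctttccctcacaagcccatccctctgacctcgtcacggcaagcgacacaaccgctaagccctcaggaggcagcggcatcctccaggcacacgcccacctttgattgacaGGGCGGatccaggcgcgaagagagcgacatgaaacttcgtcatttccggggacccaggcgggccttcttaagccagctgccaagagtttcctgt

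The Zfp871 stretch held 3 matches to ACGTG, of which 2 overlap in a CACGTG, the Zfp281 and Zfp131 stretches 1 each, and the other stretches 0. Zfp281 had 4 GC boxes and Zfp148 had 0. Over the 300 bases from 250 before to 50 after the start, ACGTG was present in 11 of 52 members (21.2%), against 27.5% of the 5579 matched genes of the same minimum signal and 19.6% of all 27025 genes in the table. It was in 5 of the 12 matched members that were 2-fold lower after cyclic hypoxia and reoxygenation, and in 6 of the other 40. GGGCGG was in 61.5% of members, against 69.1% of genes of the same minimum signal, and the CCAAT box (CCAAT) in 53.8% against 39.1%. A match is only a match of letters, and no test was made of these shares.

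**Figure D1:**
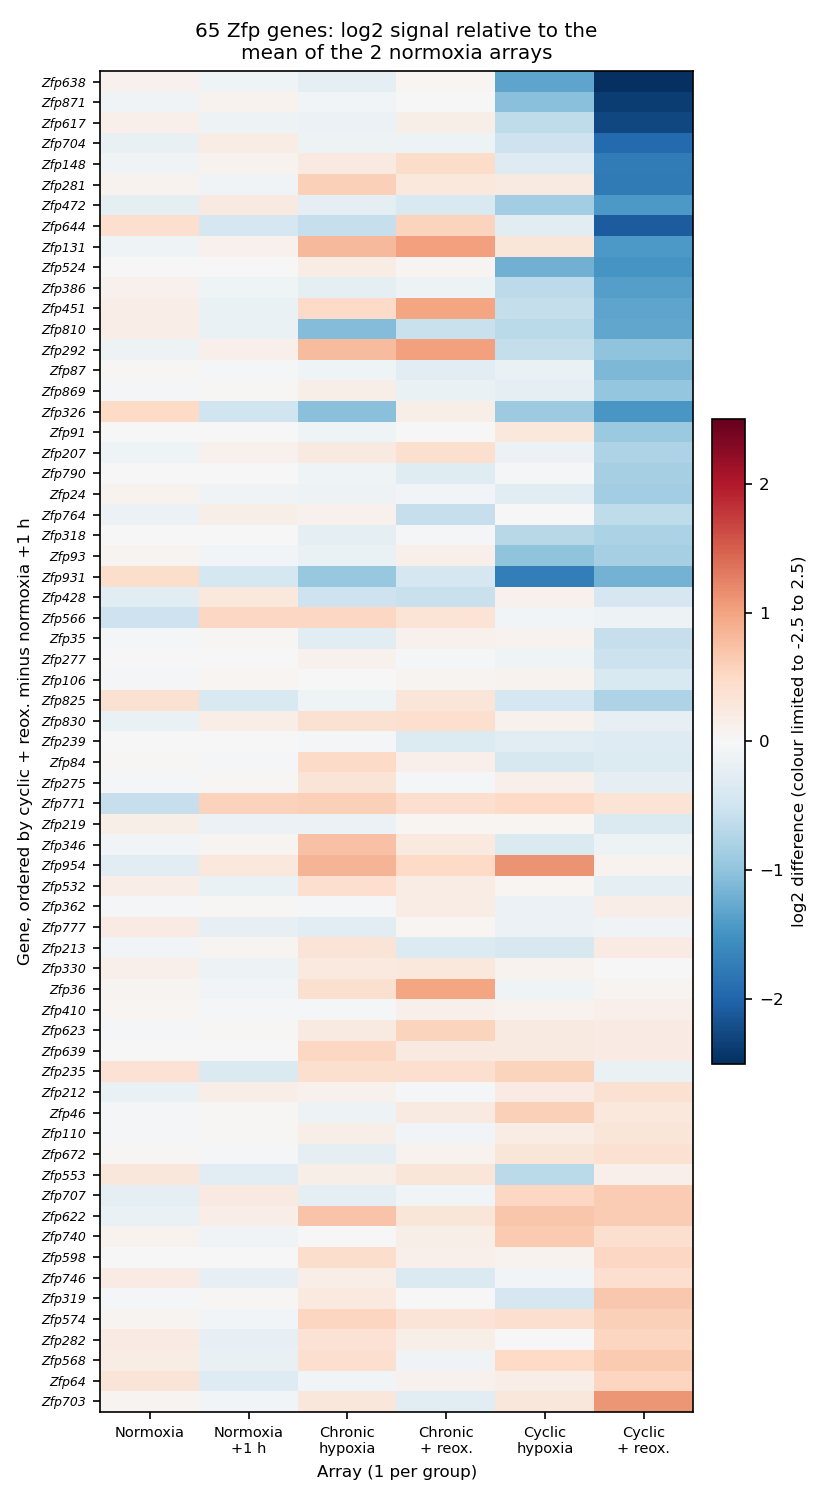
Heat map of the 65 Zfp genes (rows) in the 6 arrays (columns). Colour gives the log2 signal relative to the mean of the 2 normoxia arrays, and rows are ordered by the difference of cyclic hypoxia with reoxygenation from normoxia +1 h. The deepest blue lies in the last column, with Zfp638, Zfp871 and Zfp617 at the top and Zfp703 (1.18 higher) at the bottom.

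Among transcription factors, Zfp148 and its relative Zfp281 were both lowest on the last array. Zfp148 had signals of 83.1 units in normoxia, 94.7 in normoxia +1 h, 104 after chronic hypoxia, 122 after chronic hypoxia and reoxygenation, 70.9 after cyclic hypoxia and 26.3 after cyclic hypoxia and reoxygenation. Its last value was the lowest of the 6, and the log2 difference from normoxia +1 h was -1.85. All 4 Zfp148 probe sets with a mean of 20 units or more were lower there, at log2 differences of -1.85, -2.17, -1.24 and -1.23. Zfp281, a regulator of pluripotency genes, read in the same order 88.3, 77.5, 125, 99.3, 96.2 and 24.3 units. Only its last array was low, with a log2 difference of -1.67, and -0.97 at its second probe set.

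Zfp131 was highest in both chronic arrays and low only on the reoxygenated cyclic array. At the end of cyclic hypoxia it was above normoxia, by a log2 difference of 0.41. Its signals were 67.6 units in normoxia, 78.3 in normoxia +1 h, 128 after chronic hypoxia, 149 after chronic hypoxia and reoxygenation, 89.8 after cyclic hypoxia and 26.9 after cyclic hypoxia and reoxygenation. Both chronic arrays were above every other array, by log2 differences of 0.92 and 0.93 from their controls, and the last array was below all, at -1.54. Zfp292 was also highest in the chronic arrays and lowest on the last one, with 24.1, 28.7, 45.4, 53.9, 17.4 and 13.2 units. Its differences were 0.91 and 0.91 in the chronic arrays and -0.47 and -1.13 in the cyclic arrays. Dimmer Zfp292 probe sets, with means of 16.4 and 15.1 units, gave -0.29 and -0.31 on the last array, short of 2-fold.

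Of the members with roles in RNA and chromatin, Zfp638 differed most. It had 53.0 units in normoxia, 46.0 in normoxia +1 h, 41.8 after chronic hypoxia, 50.7 after chronic hypoxia and reoxygenation, 19.7 after cyclic hypoxia and 4.34 after cyclic hypoxia and reoxygenation. Both cyclic arrays were below all others, with log2 differences of -1.43 and -3.41, and a second, dimmer probe set gave -0.58 and -2.02. Zfp451 read 51.7, 40.5, 63.8, 91.3, 30.3 and 18.3 units, with both chronic arrays highest and both cyclic arrays lowest. Zfp644, a partner of the histone methyltransferases G9a and GLP, read 52.5, 29.0, 26.1, 57.0, 32.1 and 9.22 units. It was lowest on the last array (-1.65), but its normoxia arrays also differed by -0.86, and of its other probe sets 1 gave -1.14 and 1 gave 0.03.

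The remaining lower members have less settled roles. Zfp871 had 100.3 units in normoxia, 113 in normoxia +1 h, 101 after chronic hypoxia, 106 after chronic hypoxia and reoxygenation, 51.6 after cyclic hypoxia and 20.5 after cyclic hypoxia and reoxygenation. The 4 arrays without cyclic hypoxia lay between 100.3 and 113 units, and the cyclic arrays gave -0.96 and -2.46. Zfp617 (-2.15), Zfp704 (-2.12), Zfp472 (-1.65), Zfp524 (-1.47), Zfp386 (-1.25), Zfp810 (-1.13) and Zfp87 (-1.10) complete the set. All 15 were lowest of all 6 arrays after cyclic hypoxia and reoxygenation, which their choice on that array largely fixed. Of the 15, 13 were already below normoxia at the end of cyclic hypoxia, 2 of them 2-fold, where 38 of all 65 members and 50.8% of all genes were below. After chronic hypoxia and reoxygenation 9 of the 15 were above normoxia +1 h, as were 42 of all 65 members. None of the 15 was called in the limma fit.

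The reoxygenation hour of cyclic hypoxia can be read without the normoxia arrays, but it rests on the same outlying reoxygenated cyclic array. It is therefore no independent check of the lower members. Over that hour 10 members were 2-fold or more lower (background 7.12%) and 1 was higher (1.05%). The lowest were Zfp638 (-2.19), Zfp281 (-1.98), Zfp644 (-1.80), Zfp131 (-1.74) and Zfp617 (-1.64). Zfp91, an atypical ubiquitin ligase and the only member with a mean of 100 units or more in this count, went from 217 to 95.0 units (-1.19), while a dimmer Zfp91 probe set gave 0.19. Highest were Zfp319 (1.11), Zfp703 (0.82), Zfp553 (0.82), Zfp213 (0.62) and Zfp931 (0.54). Over the last hour of the chronic regime 0 members were 2-fold lower (0.404%) and 2 were higher (0.748%), Zfp326 by 1.19 and Zfp644 by 1.13. Dimmer Zfp644 probe sets, with means of 24.2 and 11.6 units, gave 0.04 and -0.02 in that hour. In the cyclic regime they gave -0.72 and -0.33.

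**Figure D2:**
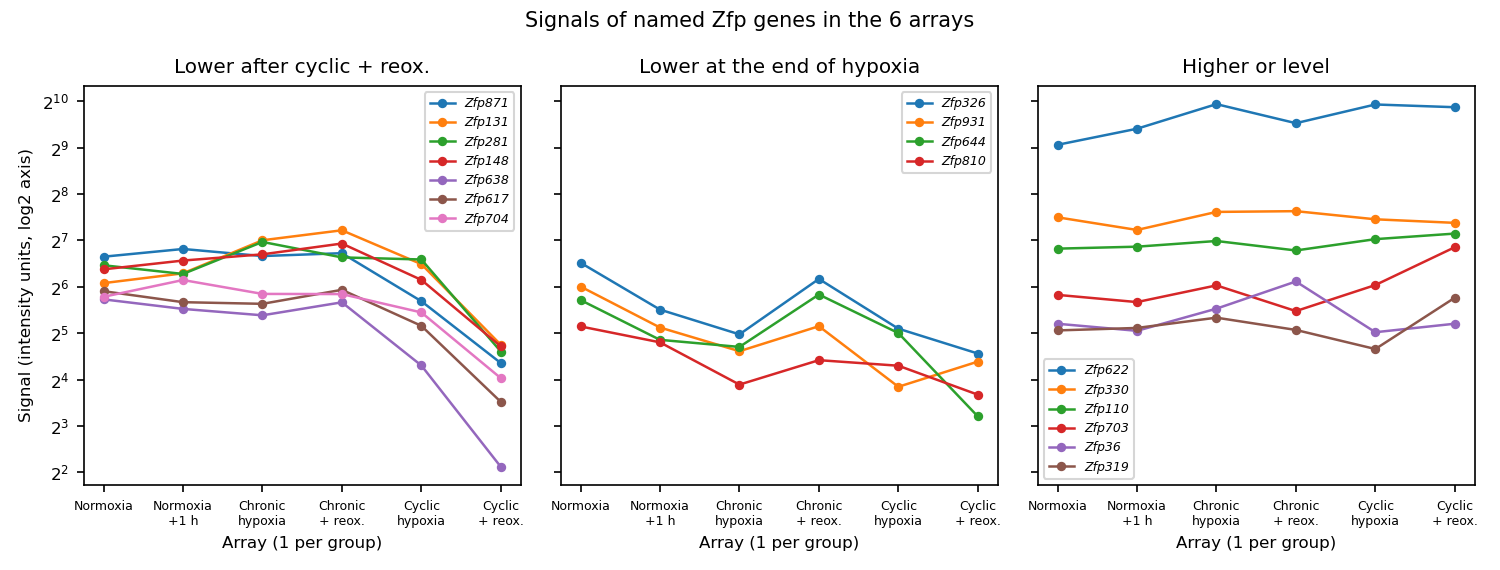
Signals (intensity units, log2 axis) of named Zfp genes in the 6 arrays, 1 array per group. Lines only join the points of a gene. In the left panel 7 genes lie lowest after cyclic hypoxia and reoxygenation. In the middle panel 4 genes lie below the first normoxia array at the end of hypoxia, and all but Zfp931 are lowest on the last array. In the right panel Zfp622 lies lowest in normoxia and Zfp703 highest in the last array.

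Read over the whole family, the array with the lowest signal was that after cyclic hypoxia and reoxygenation for 31 of 65 members (47.7%), against 29.4% of all genes. It was the highest array for 12 members (18.5%), against 27.1% of all genes. The median member had a log2 difference of -0.34 there, with 40 of 65 below 0, where the median over all genes was 0.00. With quantile normalization these medians were -0.17 and 0.05, with 13 members lower and 3 higher (8.04% and 2.86% of all genes), and with each array centred on its median they were -0.19 and 0.15, with 11 lower and 2 higher (7.99% and 3.01%). Among genes with a mean of 20 to under 100 units the members' share was 28.3% (15 of 53) against 12.7%, and with a mean of 50 or more it was 6 of 31 members against 9.13% of genes. In such bulk samples, fewer cells that express a gene and less of its RNA per cell cannot be told apart. The part of this outlying array in the result was not tested.

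On the log2(signal + 16) scale, which understates the differences of dim genes, 8 members were 2-fold lower, and the share of all genes on that scale is not given. With the main log2 signals, the mean of both normoxia arrays as the control gave 16 lower and 1 higher, against 10.2% and 1.42% of all genes. Of the 15, 6 have other probe sets with a mean of 10 units or more, and 9 of those 10 probe sets were also below 0, 5 of them 2-fold. Of these 5, 3 are of Zfp148. The share among other probe sets of all genes is not given. The same outlying array is read, so the count is no independent check.

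Zfp207 differed between its probe sets. This gene encodes BuGZ, which binds Bub3 and helps chromosomes align on the spindle. Its brightest probe set had 385 units in normoxia, 449 in normoxia +1 h, 483 after chronic hypoxia, 552 after chronic hypoxia and reoxygenation, 378 after cyclic hypoxia and 244 after cyclic hypoxia and reoxygenation, a last log2 difference of -0.88 that is short of 2-fold. A second probe set, with a mean of 373 units, read 491, 424, 498, 507, 252 and 65.8 units and gave -2.69. Both had the last array lowest. Over the 16 members with 2 or more probe sets at 20 units or more, all probe sets had the same sign for 12 in this contrast and for 9 in chronic hypoxia at the end.

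At the end of the exposure fewer members were past 2-fold. In chronic hypoxia 4 members were 2-fold or more lower (background 0.988%) and 3 higher (1.78%), with a median of 0.06 against 0.02 for all genes. In cyclic hypoxia 5 were lower (3.49%) and 2 higher (1.62%), with a median of -0.12 against -0.01. These contrasts share the first normoxia array. The normoxia arrays themselves differed 2-fold at 1 member lower (0.479%) and 2 higher (0.269%), Zfp326 (-1.01), Zfp771 (1.17) and Zfp566 (1.02).

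Zfp326, a subunit of the DBIRD complex that links elongation by RNA polymerase II to splicing, was low in both regimes at the end. Its signals were 91.7 units in normoxia, 45.5 in normoxia +1 h, 31.4 after chronic hypoxia, 72.0 after chronic hypoxia and reoxygenation, 34.2 after cyclic hypoxia and 23.6 after cyclic hypoxia and reoxygenation. The first normoxia array was its highest. The differences from it were -1.54 and -1.42, and against the mean of both normoxia arrays -1.04 and -0.92. Zfp931 read 64.2, 34.8, 24.4, 35.5, 14.4 and 20.9 units, with differences of -1.39 and -2.16 and again a high first normoxia array. Zfp810 (-1.25 and -0.85), Zfp644 (-1.01 and -0.71) and Zfp825 (-0.49 and -0.81) followed. Dimmer Zfp644 probe sets, with means of 24.2 and 11.6 units, gave 0.07 and -0.60, and -0.40 and -0.92. Against the mean of both normoxia arrays 2 members, Zfp326 and Zfp810, were 2-fold lower after chronic hypoxia, where 0.419% of all genes were. In cyclic hypoxia Zfp638 (-1.43), Zfp524 (-1.20) and Zfp93 (-1.08) were also 2-fold lower.

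The higher members at the end were mostly dim. Zfp954 (1.10 and 1.38), Zfp771 (1.17 and 1.09) and Zfp566 (1.02 and 0.44) had 17.7, 10.5 and 13.1 units in normoxia, and their second normoxia array was higher too, by 0.52, 1.17 and 1.02. Against the mean of both normoxia arrays 0 members were 2-fold higher after chronic hypoxia and 1 after cyclic hypoxia, where 1.45% and 1.2% of all genes were. Zfp622, a maturation factor of the large ribosomal subunit, was the brightest member and the only bright one among the 5 highest in both regimes. It had 534 units in normoxia, 679 in normoxia +1 h, 981 after chronic hypoxia, 738 after chronic hypoxia and reoxygenation, 976 after cyclic hypoxia and 937 after cyclic hypoxia and reoxygenation. All 4 hypoxia arrays were above both normoxia arrays, by 0.88, 0.12, 0.87 and 0.46, and the chronic value after reoxygenation turned to -0.01 with median centring. A second, dimmer probe set gave 1.12 after cyclic hypoxia and 0.88 with reoxygenation.

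After chronic hypoxia and reoxygenation the higher members were Zfp451 (1.17) and Zfp36 (1.06), followed by Zfp644 (0.98). Zfp36 had 36.8 units in normoxia, 33.1 in normoxia +1 h, 46.1 after chronic hypoxia, 69.3 after chronic hypoxia and reoxygenation, 32.5 after cyclic hypoxia and 36.9 after cyclic hypoxia and reoxygenation. Only the chronic arrays stood above the rest. Among members that shared a direction in both regimes at this collection, the highest were Zfp64, Zfp553, Zfp574, Zfp282 and Zfp740, at 0.25 to 0.86, and the lowest Zfp764, Zfp428, Zfp472, Zfp810 and Zfp239, at -0.34 to -1.65.

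**Figure D3:**
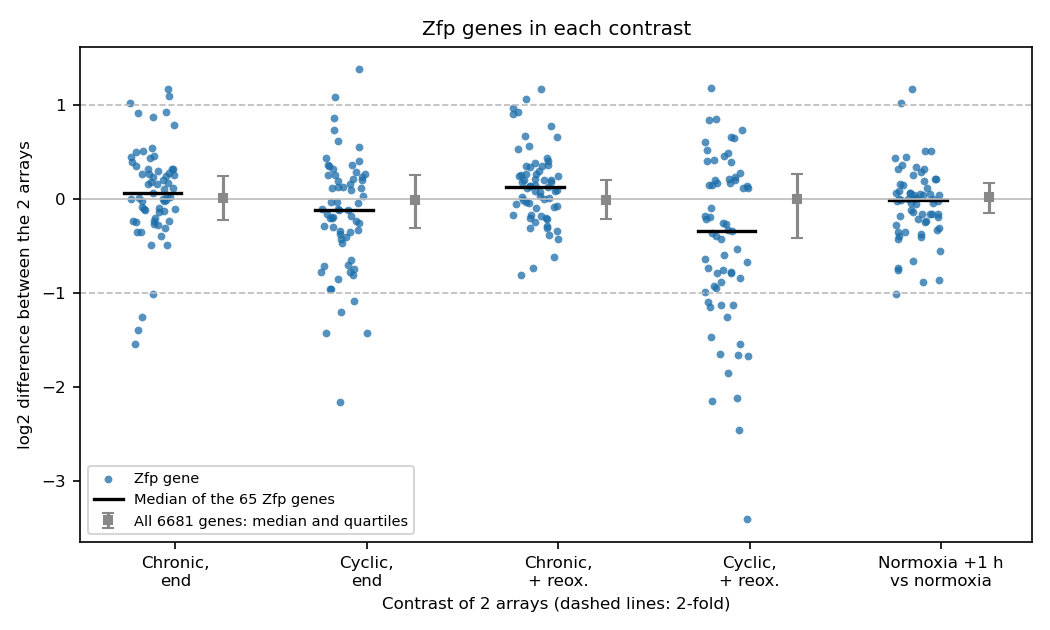
Log2 differences of the 65 Zfp genes (blue points, 1 per gene) in 5 contrasts of 2 arrays, with the members' median (black line) and the median and quartiles of all 6681 genes (grey). Dashed lines mark 2-fold. The members' median is -0.34 after cyclic hypoxia with reoxygenation and 0.13 after chronic hypoxia with reoxygenation.

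Cyclic and chronic hypoxia can also be set directly against each other, although with reoxygenation this again uses the outlying reoxygenated cyclic array. At the end 5 members were 2-fold or more lower in cyclic hypoxia (background 1.92%) and 0 higher (0.464%), and with reoxygenation 16 were lower (11.9%) and 1 higher (1.26%). The members' medians were -0.21 and -0.45, against -0.03 and 0.01 over all genes. At the end 3 were lower with quantile normalization (1.59% of all genes) and 2 with median centring (1.42%). With reoxygenation and quantile normalization 14 were lower and 2 higher (9.59% and 2.78%), and with median centring 12 and 3 (7.77% and 4.51%). With reoxygenation the members' median was then -0.21 and -0.17, beside 0.10 and 0.29 over all genes. Zfp346, which binds double-stranded RNA, had 88.6 units after chronic and 41.9 after cyclic hypoxia, with 51.3 in normoxia. Its other arrays lay between 49.0 and 63.5 units.

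Only the additive fit gives a test, in which the 2 collections of a regime stand in for replicates and a difference that arose in the last hour counts as noise. By limma with Benjamini-Hochberg adjustment over 13556 probe sets, 0 of 65 members were called in mean hypoxia, chronic hypoxia, cyclic hypoxia, cyclic against chronic hypoxia or the later against the first collection. The background was 0.0148% of probe sets called higher in mean hypoxia, 0.0959% in chronic hypoxia and 0% elsewhere. At an unadjusted p under 0.05, 1 member was higher and 16 lower in cyclic hypoxia, where 5.19% and 9.74% of probe sets were. For cyclic against chronic hypoxia 0 were higher and 17 lower (3.98% and 10.5%), for chronic hypoxia 3 and 0 (3.98% and 1.37%), for mean hypoxia 2 and 6 (4.77% and 4.14%), and for collection 0 and 1 (1.5% and 1.27%).

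The smallest adjusted p among members in cyclic hypoxia was that of Zfp871, with -1.71 (SE 0.37, limma adjusted p = 0.129). Next came Zfp638 with -2.42 (SE 0.54, adjusted p = 0.142) and Zfp524 with -1.34 (SE 0.32, adjusted p = 0.155), each lower than its control in 2 of 2 cyclic arrays. For cyclic against chronic hypoxia Zfp292 (-1.71) and Zfp451 (-1.69) had an adjusted p of 0.189 in limma. For mean hypoxia Zfp622 had 0.58 (SE 0.17, adjusted p = 0.414) and was higher in 4 of 4 hypoxia arrays. Among the fits that left out a single array, only that without the array at the end of cyclic hypoxia called members. Cyclic hypoxia then rests on the outlying array alone, so those calls are not counted here. Median centring gave 2 calls in cyclic hypoxia and 3 in cyclic against chronic hypoxia. The share of all probe sets called with median centring is not given here.

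**Figure D4:**
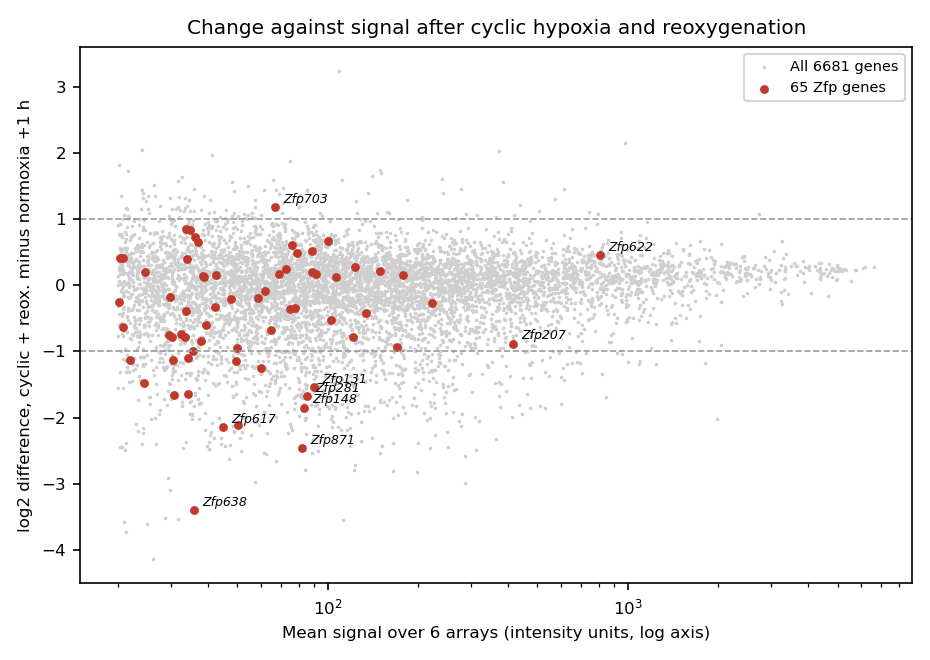
Log2 difference of cyclic hypoxia with reoxygenation from normoxia +1 h (y axis) against the mean signal over 6 arrays (x axis, log scale, intensity units), for all 6681 genes (grey) and the 65 Zfp genes (red). Dashed lines mark 2-fold. The 15 Zfp genes below -1 all have a mean signal under 100 units, and the 12 brighter ones lie between -0.93 and 0.67.

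Many members were level throughout. In all, 42 of the 65 stayed within 2-fold of their control in all 4 hypoxia contrasts, and 36 spanned less than 2-fold over the 6 arrays. The share of all genes that were level by these measures is not given, so these counts do not set the members apart. Zfp362 (93.8 to 119 units), Zfp110 (110.1 to 142), Zfp330 (149.6 to 198) and Zfp106 (105 to 145) had the smallest ranges among members with a mean of 100 units or more. Zfp110 encodes a protein that binds the neurotrophin receptor p75, Zfp330 a nucleolar protein and Zfp106 an RNA-binding protein needed in muscle and motor neurons. Zfp410, the activator of the chromatin remodeller gene Chd4, lay between 84.8 and 96.5 units, the narrowest span of any member at the brightest probe set. Dimmer second probe sets spanned more, from 27.8 to 46.8 units for Zfp410 and from 33.7 to 61.9 for Zfp106. Zfp275 (185 to 270 units), Zfp598, a ligase that senses collided ribosomes (76.2 to 109.8), and Zfp568, a KRAB repressor (25.2 to 45.2), were within 2-fold of their controls in the 4 hypoxia contrasts.

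Zfp703, a nuclear corepressor, was the 1 member 2-fold or more higher after cyclic hypoxia and reoxygenation. It had 56.7 units in normoxia, 50.9 in normoxia +1 h, 65.3 after chronic hypoxia, 44.5 after chronic hypoxia and reoxygenation, 65.7 after cyclic hypoxia and 116 after cyclic hypoxia and reoxygenation. Only the last array stood out, by 1.18 from its control, and the limma fit of cyclic hypoxia gave 0.70 (SE 0.34, adjusted p = 0.379).

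Position and length were not used to choose the members. In GRCm38.p6, 31 members have another Zfp gene as the next protein-coding gene on at least 1 side, and 34 do not. Of the first, 6 were 2-fold lower after cyclic hypoxia and reoxygenation (median -0.33), and of the second 9 (median -0.38). The 15 lower members had a median gene length of 26.3 kb and the other 50 of 13.0 kb. Of the brightest probe sets, 9 are of the kinds whose probes can match several transcripts or genes (suffixes _s_at and _x_at), those of Zfp622, Zfp110 and Zfp931 among them, and 1 of these 9 belongs to the 15 lower members, that of Zfp644. Near-identical Zfp genes may share such signal.

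Other families were set beside the members in the contrast of cyclic hypoxia with reoxygenation, as counts without a test. The background of that contrast was 9.97% of all 6681 genes 2-fold lower. Of 19 genes named Zbtb, Zscan or Zkscan, which also encode C2H2 proteins, 3 were 2-fold lower with a median of -0.19. Of 8 Krüppel-like factor genes 2 were (median -0.28), and of 40 Rab GTPase genes 3 (7.5%, under the background, median -0.05). Of a list of partners of KRAB proteins and other silencing genes, 20 of 23 were named on the array and 17 had a mean of 20 units or more. Trim28, the corepressor itself, had 403 units in normoxia +1 h and 535 after cyclic hypoxia and reoxygenation (0.41), while 6 of the 17 were 2-fold lower, with a median of -0.47. They were the dim Mga (-3.74), whose last signal was under the floor, the remodeller Smarcad1 (-1.95), Cbx5, which encodes the heterochromatin protein HP1 alpha (-1.93), the DNA methyltransferase Dnmt3a (-1.36), the deacetylase Hdac2 (-1.24) and Morc3 (-1.11). Of 30 measured genes of mRNA deadenylation and decay 2 were 2-fold lower (median -0.25), a share under the background. They were the deadenylase subunits Cnot6 (-2.33) and Cnot6l (-1.93). In the limma fit 0 genes of either list were called in any of the 5 contrasts.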

How the data were processed

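Biotinylated cRNA of each group was hybridised to 1 Affymetrix array, 6 in all. The deposited values are signals (intensity units, linear scale), made by the authors with GCOS, per the submitters' processing notes, and the algorithm and version are not given in the sources used here. The trimmed mean of each array, leaving out 2% at each end, was 100.1 units, so the deposited scaling was kept. Signals carry no counts, and the number of arrays limits the precision. Values under the 20th percentile (2.10 units) were set to it before log2. Of 22690 probe sets, 20393 named 1 gene. Symbols were updated by Entrez identifier through RefSeq (GRCm38.p6), and each gene was represented by its brightest probe set. Differences of single arrays were counted past 2-fold without a test. The additive fit (regime and collection, 2 residual degrees of freedom) used limma 3.58.1 in R 4.3.3 with an intensity trend and two-sided moderated tests, over 13556 probe sets with a mean of 8.33 units or more and without 64 control probe sets, with Benjamini-Hochberg adjustment at 0.05. It was tested on simulated data. The labels do not say that collections came from separate cultures, so p-values measure only the spread between these arrays.

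Members and lists were chosen with earlier results of these data known. Genes named were the 5 highest and lowest in both regimes at each collection, the 5 highest and lowest over the last cyclic hour, the 4 of smallest range and the 5 brightest, those with the smallest p in each test, and members with a known role. Zfp87, Zfp93, Zfp386, Zfp410, Zfp704, the genes of other lists and the second probe sets were named after their values were seen. Protein features were planned, and no protein sequences were used here.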

Additional observations from a re-analysis of the deposited data

Results flagged for a closer look

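Some members had hypoxia differences of opposite sign, each of at least 0.5 on the log2 scale, at the 2 collections or in the last hours of the 2 regimes. Each value is a difference of 2 single arrays, so the difference between them was not tested. For chronic hypoxia against normoxia, Zfp326 had -1.54 at the end and 0.66 with reoxygenation, and Zfp644 had -1.01 and 0.98. The normoxia arrays of these genes differed by -1.01 and -0.86, and their part in the result was not tested. These values are of the brightest probe sets. Dimmer Zfp644 probe sets, with means of 24.2 and 11.6 units, gave 0.07 and 0.28, and -0.40 and 0.87. The first of them had no change of sign.

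The last hours of the chronic and cyclic regimes share no array. Over them Zfp326 had 1.19 in the chronic and -0.54 in the cyclic regime, Zfp644 had 1.13 and -1.80, Zfp451 had 0.52 and -0.72, and Zfp810 had 0.53 and -0.62. The opposite order was seen for Zfp703, with -0.55 and 0.82, and for Zfp213, with -0.67 and 0.62. The Zfp644 probe sets with means of 24.2 and 11.6 units gave 0.04 and -0.72, and -0.02 and -0.33.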

How the results depend on the processing

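The 15 members that were 2-fold lower after cyclic hypoxia and reoxygenation became 8 with log2(signal + 16) and 25 of 103 members with a minimum mean of 10 units. They became 6 of 31 with 50 (9.13% of all genes) and 0 of 12 with 100 (7.61%). No share of all genes is given with log2(signal + 16), the floor of 16 units, the minimum of 10, all probe sets of a gene or symbol suffixes. The member counts at those settings therefore have no background. The 1 higher member became 3 with quantile normalization, 2 with median centring, 0 with log2(signal + 16), 4 with the minimum of 10 and 0 with that of 100. At the end of chronic hypoxia the 3 higher members became 1 with a floor of 16 units, 0 with log2(signal + 16) or against the mean of both normoxia arrays (chosen after seeing the data), 5 with the minimum of 10, and 0 with 50 or 100. The 4 lower became 1 with log2(signal + 16), 2 against the mean of both normoxia arrays, 7 with the minimum of 10, and 0 with 50 or 100. At the end of cyclic hypoxia the 2 higher became 1 with the floor of 16, with all probe sets of a gene or against the mean of both normoxia arrays, and 0 with log2(signal + 16) or a minimum of 50 or 100. The 5 lower became 2 with log2(signal + 16), 16 with the minimum of 10, 0 with 50 or 100, and 8 with symbol suffixes allowed (74 genes). After chronic hypoxia and reoxygenation the 2 higher became 1 with median centring, 0 with log2(signal + 16), 4 with the minimum of 10, and 0 with 50 or 100.

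The 0 calls of the additive limma fit became 2 in cyclic hypoxia and 3 in cyclic against chronic hypoxia with median centring. No share of all probe sets is given for that setting. With each array left out in turn, members were called only without the array at the end of cyclic hypoxia. The lone cyclic array is then assumed to vary like the others, so those calls are not counted here. No paired analysis was possible because each group has 1 array and the labels carry no replicate numbers to use as a block, beyond the collection term that the additive fit already holds. Dim signal limits most members: with 34 of 65 under 50 units, small differences cannot be resolved. The cause of these shifts was not tested. A higher minimum also leaves fewer genes to count.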

Other observations

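Zfp symbols that carry a suffix were left out of the family and are given as values. Zfp36l1 and Zfp36l2, relatives of Zfp36 that also promote mRNA decay, had mean signals of 238 and 147 units. Zfp36l1 had 266 units in normoxia +1 h and 177 after cyclic hypoxia and reoxygenation, and Zfp36l2 had 148 and 145. Zfp955a read 83.8 units in normoxia, 64.0 in normoxia +1 h, 70.1 after chronic hypoxia, 65.04 after chronic hypoxia and reoxygenation, 35.5 after cyclic hypoxia and 20.6 after cyclic hypoxia and reoxygenation. Zfp322a read 37.0, 32.4, 29.5, 29.8, 15.2 and 10.0 units in the same order. Both cyclic arrays were the lowest for both genes. Zfp518b lay between 76.5 and 105 units on all arrays. These genes were chosen after their values were seen.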
